A study of Mus musculus with 24 samples.

Results

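The common gamma-chain cytokine system is described here by 9 genes: the shared receptor chain Il2rg, the receptor chains Il2ra, Il2rb, Il4ra, Il7r, Il15ra and Il21r, and the ligands Il7 and Il15. They were taken by symbol from the 41388 Ensembl genes of the count tables, all 9 were found, and all 9 passed the filter on low counts at every time point. The RNA came from part of the heart of 24 mice, all male, wild type and labelled Balb/c (BALB/cAnNCrl in the methods of the study), 4 with experimental autoimmune myocarditis (EAM) and 4 controls at each of days 10, 15 and 21 after immunization (D10, D15 and D21). EAM mice received SCFA adjuvant emulsified with a myosin heavy chain peptide on days 0 and 7 and pertussis toxin (PTX) on day 0, and controls received SCFA with PBS on the same days and the same PTX, so that both arms carry the adjuvant and the toxin. Inflamed hearts were preferred when EAM samples were selected for RNA. The mice were young adults.

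The receptors for IL-2, IL-4, IL-7, IL-9, IL-15 and IL-21 share the gamma chain encoded by Il2rg, which signals through the kinase JAK3 beside a cytokine-specific chain that uses JAK1. The IL-2 receptor adds the alpha chain (Il2ra) and the beta chain (Il2rb), and the IL-15 receptor uses the same beta chain with its own alpha chain (Il15ra), which presents IL-15 to neighbouring cells. These cytokines are known for the survival, growth and differentiation of T cells, NK cells and B cells, and IL-4 also acts on macrophages.

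Total counts lay between 15814863 and 24980864 reads per heart, and 3 reads, the number that a count of 0 allows, made 0.105 to 0.2 CPM (reads scaled to libraries of one size, TMM-normalized over the 24 hearts). The RNA is of heart tissue in bulk, so more cells of a type and more RNA per cell cannot be told apart in any value below. At D15 all 10 T cell markers, all 7 NK cell markers and all 9 monocyte and macrophage markers examined rose, as did 18.1% of all genes tested, whereas 0 of the 4 B cell markers tested were called. The summed T cell markers spanned 66.2 to 91.0 CPM in the EAM hearts against 3.53 to 5.67 CPM in the controls. The summed cardiomyocyte markers spanned 7230 to 18509 CPM against 26638 to 31296 CPM at that time. The part of these cell markers in the results was not tested. The first EAM heart of D10 stood apart from the other 3 of its group. The 4 EAM libraries of D21 carried another library code than the other 20, so at D21 this code and EAM cannot be told apart.

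At D15, 6 receptor chains rose together. Il7r was 32.0-fold, Il21r 31.6-fold and Il2rb 27.2-fold higher in EAM than in control hearts, whereas Il4ra (7.15-fold), Il2ra (7.09-fold) and Il2rg (6.08-fold) rose less. Il15ra was 1.39-fold higher, and the 2 ligands, Il7 and Il15, did not pass the test. A gene is called here where its edgeR adjusted p (FDR) is below 0.01 and it changed by 2-fold or more. By this rule 0 of the 9 genes were called at D10, 6 rose at D15 and 3 rose at D21, and none fell. With limma-voom only Il7r was called at D21, and Il2rb and Il21r had adjusted p of 0.0130 and 0.0285 (ranges over 19 alternatives 6.4e-13 to 0.0268 and 8.6e-11 to 0.0304). Of all genes tested, 0% were called higher at D10, 18.1% at D15 and 4.3% at D21. The shares called lower were 0%, 12.9% and 1.3%. The median log2 fold change of the 9 genes went from 0.80 (D10) to 2.82 (D15) and 1.95 (D21), and the median of all genes tested was -0.01, 0.02 and -0.01. Without the first EAM heart of D10 the median of the 9 genes at D10 was 0.34.

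**Figure D1:**
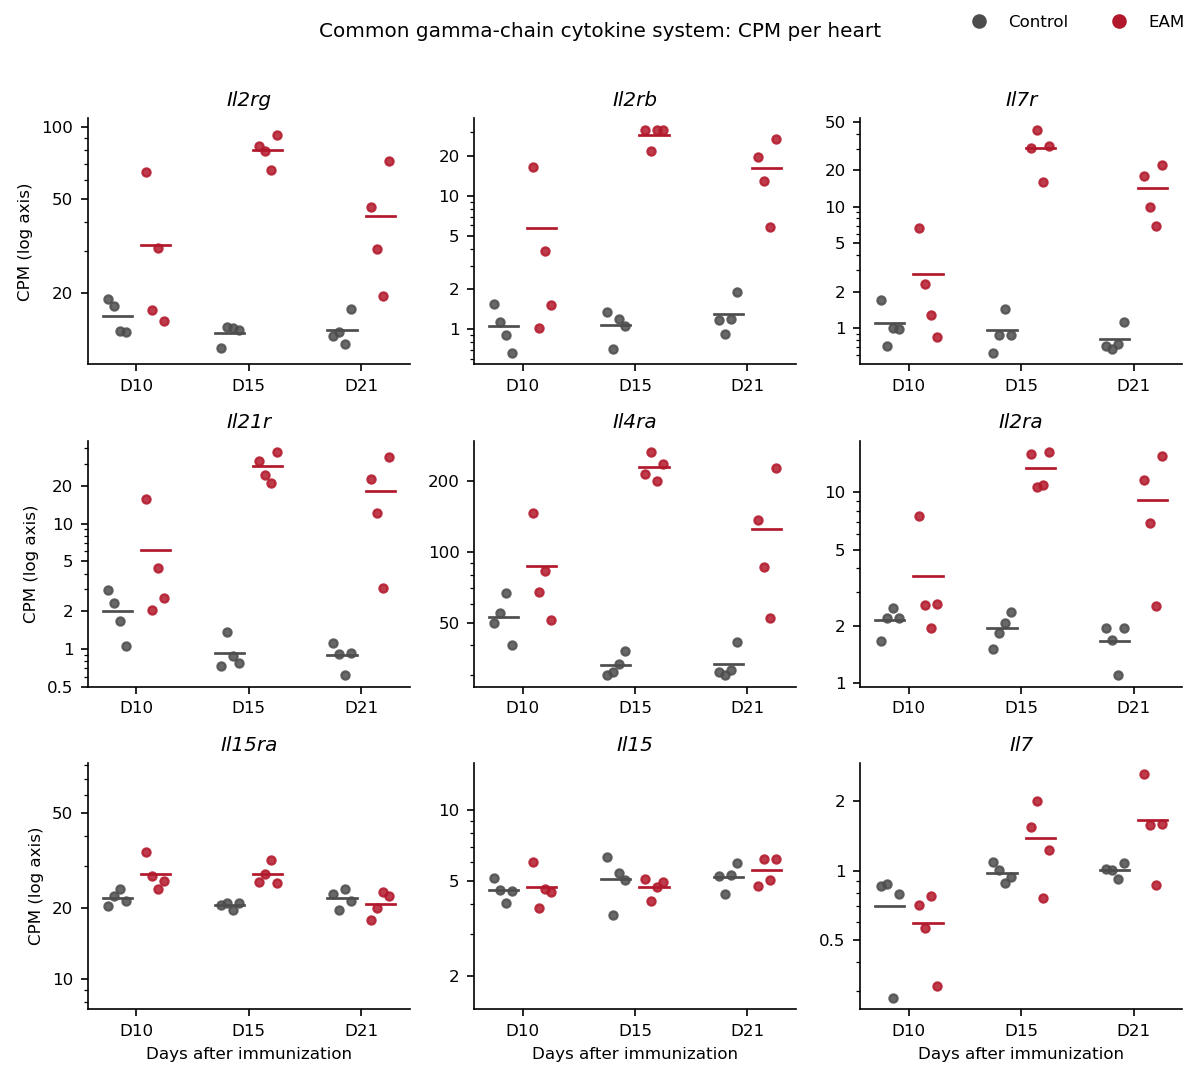
CPM on a log axis in each of the 24 hearts for the 9 genes, with control hearts in grey, EAM hearts in red and a line at the mean of each group of 4. At D15 the EAM hearts lie above every control heart for all receptor chains and overlap with the controls for Il15 and Il7.

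The shared chain Il2rg (ENSMUSG00000031304) lies at chrX:101264378-101268255 on the minus strand of GRCm38. In control hearts it stood between 11.8 and 18.9 CPM at all times. At D15 the 4 EAM hearts were at 83.5, 79.1, 66.0 and 92.7 CPM and the controls at 11.8, 14.4, 14.2 and 13.9 CPM. The groups did not overlap, and the log2 fold change was 2.60 (SE 0.12, edgeR adjusted p = 1.3e-07). At D21 the EAM hearts had 46.0, 30.8, 19.4 and 72.4 CPM, all above the controls at 13.2, 13.6, 12.2 and 17.0 CPM, with a log2 fold change of 1.62 (SE 0.37, edgeR adjusted p = 0.0148) that missed the limit. At D10 one EAM heart stood at 64.9 CPM, another at 30.8 CPM, and the other two, at 16.9 and 15.3 CPM, lay in the control range of 13.7 to 18.9 CPM. The D10 log2 fold change was 0.99 (SE 0.43, edgeR adjusted p = 0.329), and 0.38 without the first EAM heart. Of the 2387 exon bases of Il2rg, 30.5% are also annotated to Gm20489 on the same strand, which had 0 reads in all 24 hearts. Reads that fell on more than one gene were set aside in the counting, so the level of Il2rg per length may be too low.

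The 250 bases before the RefSeq start of Il2rg (RefSeq windows of GRCm38.p6, chrX:101268256-101268505, minus strand) are shown with those of Il21r (chr7:125603179-125603428, plus strand), one of the chains with the largest fold change. Il2ra (chr2:11642542-11642791, plus strand) and Il15ra (chr2:11705043-11705289, plus strand, 247 bases kept to stay outside the gene) are shown because these genes are neighbours, 12096 bases apart, with unequal responses. The search covered both strands for a STAT site (TTCNNNGAA) and an AP-1 site (TGANTCA), and neither is in these windows, so no base is in capitals.
Il2rg: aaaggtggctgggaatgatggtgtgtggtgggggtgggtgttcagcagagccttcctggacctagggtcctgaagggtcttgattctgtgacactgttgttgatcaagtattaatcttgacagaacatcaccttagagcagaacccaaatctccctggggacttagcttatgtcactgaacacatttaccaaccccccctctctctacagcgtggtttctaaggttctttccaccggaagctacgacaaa
Il21r: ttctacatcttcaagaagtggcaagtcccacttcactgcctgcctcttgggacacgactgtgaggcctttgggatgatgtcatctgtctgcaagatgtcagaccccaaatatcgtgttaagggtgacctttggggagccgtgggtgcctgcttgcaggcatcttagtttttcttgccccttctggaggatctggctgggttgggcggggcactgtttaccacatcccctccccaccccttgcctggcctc
Il2ra: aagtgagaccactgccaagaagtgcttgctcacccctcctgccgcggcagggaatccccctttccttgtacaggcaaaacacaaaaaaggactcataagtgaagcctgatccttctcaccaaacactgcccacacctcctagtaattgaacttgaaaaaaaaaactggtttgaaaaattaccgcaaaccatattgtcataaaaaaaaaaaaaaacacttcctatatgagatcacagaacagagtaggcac
Il15ra: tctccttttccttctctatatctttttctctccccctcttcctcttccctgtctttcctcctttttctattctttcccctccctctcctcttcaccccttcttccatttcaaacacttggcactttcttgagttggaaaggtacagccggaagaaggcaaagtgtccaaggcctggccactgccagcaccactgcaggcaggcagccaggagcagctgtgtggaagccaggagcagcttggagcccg

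Windows were at hand for 6 of the 9 genes. Among the 32851 windows of 250 bases, 7.02% hold the STAT letters and 6.75% the AP-1 letters. The window of Il7r holds 1 STAT match, TTCAGGGAA, 142 bases before its RefSeq start, and a further window of Il15ra holds 1 AP-1 match, TGAGTCA, 30 bases before its start. Both of these windows lie inside the annotated gene, and the matches are descriptions of the letters only.

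Il2rb (ENSMUSG00000068227, chr15:78479256-78495271, minus strand) encodes the beta chain that the IL-2 and IL-15 receptors share. The D15 controls had 1.35, 0.708, 1.19 and 1.06 CPM and the EAM hearts 31.3, 21.6, 31.2 and 31.5 CPM, with no overlap. The log2 fold change was 4.77 (SE 0.20, edgeR adjusted p = 9.8e-08). At D21 the EAM hearts were at 19.8, 12.9, 5.81 and 26.8 CPM against 1.17, 0.912, 1.18 and 1.89 CPM, and the log2 fold change of 3.70 (SE 0.50, edgeR adjusted p = 0.00461) was again called. At D10 the first EAM heart was at 16.4 CPM, and the other 3, at 1.02, 3.84 and 1.53 CPM, overlapped with the controls (1.54, 1.13, 0.898 and 0.661 CPM). The D10 log2 fold change of 2.44 (SE 0.91) had an edgeR adjusted p of 0.328, and it was 0.98 without that heart.

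Il2ra (ENSMUSG00000026770, chr2:11642807-11693193, plus strand) encodes the alpha chain of the high-affinity IL-2 receptor, which activated T cells and regulatory T cells carry. In the D15 EAM hearts it stood at 15.8, 10.6, 10.9 and 16.2 CPM, and in the controls at 1.51, 1.83, 2.07 and 2.35 CPM. The log2 fold change was 2.82 (SE 0.21, edgeR adjusted p = 2.7e-06). At D21 the EAM hearts had 11.6, 6.92, 2.54 and 15.5 CPM and the controls 1.93, 1.68, 1.09 and 1.95 CPM. Every EAM heart was above every control, and the log2 fold change of 2.51 (SE 0.52, edgeR adjusted p = 0.0111) missed the limit. It passed when the replicate number entered the fit as a block (edgeR adjusted p = 0.0066), in a range of 1.4e-05 to 0.0407 over 19 alternatives. At D10 the EAM hearts were at 7.51, 2.55, 1.95 and 2.59 CPM against 1.66, 2.20, 2.47 and 2.18 CPM, with overlap, and the log2 fold change of 0.80 (SE 0.44, edgeR adjusted p = 0.369) was 0.14 without the first EAM heart. Of 5 regulatory T cell markers 4 rose at both D15 and D21 (18.1% and 4.3% of all genes), among them Foxp3, and their part in the level of Il2ra was not tested.

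Il15ra (ENSMUSG00000023206, chr2:11705290-11734317, plus strand) was the receptor chain that moved least. Its D15 EAM hearts stood at 25.7, 27.8, 31.9 and 25.5 CPM and the controls at 20.5, 21.0, 19.6 and 20.9 CPM. The groups did not overlap, and the log2 fold change of 0.47 (SE 0.08, edgeR adjusted p = 0.00049) passed the FDR but not the 2-fold limit. At any fold, 33.3% of all genes tested at D15 were higher at this FDR. At D21 the groups overlapped, at 17.7, 19.9, 23.3 and 22.4 CPM in EAM and 22.9, 19.6, 24.1 and 21.4 CPM in control hearts, with a log2 fold change of -0.06 (SE 0.11). The effect was 0.52 lower on the log2 scale at D21 than at D15, with an edgeR adjusted p of 0.0158 for this difference (-0.52, SE 0.15).

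Il15 (ENSMUSG00000031712, chr8:82331632-82403222, minus strand), the ligand of that receptor, stayed between 3.6 and 6.3 CPM in all 24 hearts. At D15 the EAM hearts were at 5.12, 4.13, 4.73 and 4.94 CPM, inside the control values of 6.3, 3.6, 5.44 and 5.06 CPM. The log2 fold changes were 0.04 (SE 0.16) at D10, -0.08 (SE 0.17) at D15 and 0.11 (SE 0.15) at D21, with edgeR adjusted p of 0.892, 0.698 and 0.583. The sign at D10 and D15 turned when single hearts were left out, and at D15 also under scaling by total counts.

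Il7r (ENSMUSG00000003882, chr15:9505788-9530176, minus strand) encodes the IL-7 receptor alpha chain of naive and memory T cells and innate lymphoid cells. Its D15 controls were at 0.625, 0.885, 1.45 and 0.883 CPM, from 12 to 28 reads a heart, and the EAM hearts at 30.2, 43.1, 15.9 and 31.8 CPM, from 376 to 1231 reads. The log2 fold change of 5.0 (SE 0.36, edgeR adjusted p = 2.6e-06) was close to that of Il21r. At D21 the EAM hearts were at 18, 9.91, 6.88 and 22.0 CPM and the controls at 0.712, 0.672, 0.744 and 1.13 CPM, a log2 fold change of 4.15 (SE 0.44, edgeR adjusted p = 0.00304). At D10 the EAM hearts were at 6.67, 2.32, 1.28 and 0.844 CPM against 1.71, 0.717, 1.01 and 0.991 CPM and overlapped with the controls (log2 fold change 1.37, SE 0.66, edgeR adjusted p = 0.336, and 0.40 without the first EAM heart).

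Il7 (ENSMUSG00000040329, chr3:7569994-7613760, minus strand), the survival factor that this receptor binds, had 5 to 57 reads a heart. At D15 the EAM hearts stood at 1.54, 2.0, 0.759 and 1.23 CPM and the controls at 1.09, 1.0, 0.880 and 0.942 CPM. At D21 they stood at 2.61, 1.58, 0.869 and 1.60 CPM and the controls at 1.02, 1.01, 0.919 and 1.08 CPM. In both cases 3 EAM hearts lay above all controls and 1 below them. The log2 fold changes of 0.54 (SE 0.29, edgeR adjusted p = 0.116) and 0.78 (SE 0.31, edgeR adjusted p = 0.0846) did not pass. At D10 Il7 went the other way, at 0.845-fold, with overlap and not called. With 1 heart left out its D10 log2 fold change ran from -0.51 to -0.042. The antisense gene Gm16685, with 211 reads in all, shares 1.85% of the exon bases of Il7, and the sources used here do not say whether the counting used strand.

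Il4ra (ENSMUSG00000030748, chr7:125552120-125579474, plus strand) encodes the chain shared by the receptors of IL-4 and IL-13. The D15 EAM hearts were at 216, 266, 201 and 236 CPM and the controls at 29.8, 30.9, 33.4 and 37.8 CPM, with no overlap and a log2 fold change of 2.84 (SE 0.11, edgeR adjusted p = 6.3e-08). At D21 the EAM hearts were at 137, 85.8, 52.2 and 228 CPM and the controls at 30.9, 29.9, 31.3 and 41.5 CPM, without overlap. The log2 fold change of 1.95 (SE 0.42, edgeR adjusted p = 0.0121) missed the limit. At D10 the EAM hearts were at 147, 67.7, 83.3 and 51.6 CPM and overlapped with the controls (log2 fold change 0.71, SE 0.30, edgeR adjusted p = 0.329, and 0.34 without the first EAM heart). Il4ra was higher in the D10 controls, at 49.8, 54.8, 66.7 and 40.2 CPM, than in most later controls. The D15 against D10 controls gave a log2 difference of -0.68 (SE 0.33, edgeR adjusted p = 0.733), which did not pass.

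Il21r (ENSMUSG00000030745, chr7:125603429-125633570, plus strand) encodes the IL-21 receptor of T, B and NK cells and begins 23954 bases after the end of Il4ra. The D15 EAM hearts stood at 31.7, 24.5, 21.3 and 37.4 CPM and the controls at 0.729, 1.36, 0.880 and 0.765 CPM, and the log2 fold change was 4.98 (SE 0.26, edgeR adjusted p = 3.0e-07). At D21 the EAM hearts spread from 3.07 to 34.3 CPM, with the others at 23.0 and 12.1 CPM, against 1.12, 0.912, 0.613 and 0.922 CPM in the controls. The lowest of them still lay above every control, and the log2 fold change was 4.39 (SE 0.71, edgeR adjusted p = 0.00639). At D10 the EAM hearts had 15.7, 2.04, 4.40 and 2.53 CPM and the controls 2.97, 2.30, 1.68 and 1.06 CPM (log2 fold change 1.63, SE 0.69, edgeR adjusted p = 0.329, and 0.55 without the first EAM heart). The D15 controls were 1.12 lower on the log2 scale than the D10 controls (-1.12, SE 0.77, edgeR adjusted p = 0.920), which did not pass.

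**Figure D2:**
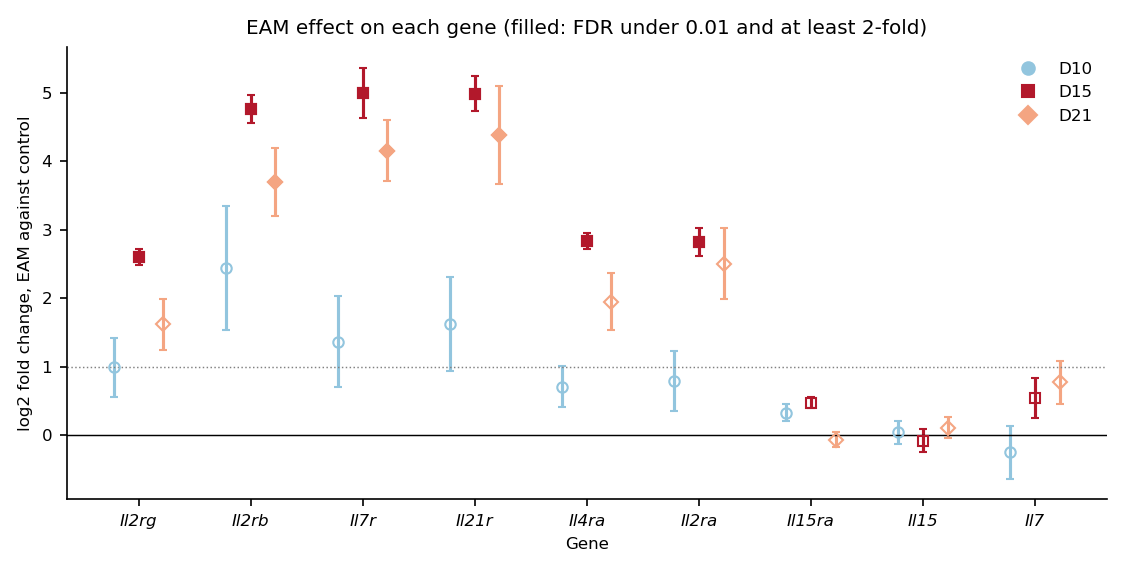
Log2 fold change of EAM against control hearts for each gene at D10, D15 and D21, with bars of 1 SE from the edgeR fit and filled symbols for genes called at that time. Filled symbols stand at D15 for 6 genes and at D21 for Il2rb, Il7r and Il21r, and at D10 there are none.

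The order of the times was then tested for each gene as a difference of the EAM effect, in a fit of all 24 hearts. From D10 to D15 the effect grew by 3.6 (SE 0.80, edgeR adjusted p = 0.00250) for Il7r, by 3.31 (SE 0.93, edgeR adjusted p = 0.00817) for Il21r and by 2.07 (SE 0.46, edgeR adjusted p = 0.00247) for Il4ra on the log2 scale. These were 3 of 9 genes, beside 5.3% of all genes tested. Il2ra, Il2rg and Il2rb grew by 1.98, 1.56 and 2.28 without passing (edgeR adjusted p = 0.0148, 0.0185 and 0.0608). All 6 passed with the replicate number as a block (1335 of all genes grew) and without the first EAM heart of D10 (1961 of all genes). By the main rule 865 of all genes grew. The Il21r call was lost when any 1 of 13 of the 16 hearts was left out. Between D15 and D21, 0 of 9 genes differed by the rule with edgeR, DESeq2, the likelihood ratio test or limma-voom, beside 2.84% of all genes that grew and 0.968% that shrank. At an unadjusted p under 0.05, 1 gene (Il15ra) had a smaller effect at D21, beside 17.4% of all genes. Between D10 and D21 again 0 of 9 genes passed (0.0674% of all genes grew), with the largest difference of 2.76 for Il7r (SE 0.81, edgeR adjusted p = 0.0729), and DESeq2 and the likelihood ratio test each called Il7r alone. None of the 9 genes was called between control hearts of different days, where 0.0797% (D15 against D10), 0.27% (D21 against D10) and 0% (D21 against D15) of all genes were called.

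At D10, where edgeR called no gene of the genome, 5 of the 9 genes were higher at an unadjusted p under 0.05, beside 9.49% of all genes tested. DESeq2, the likelihood ratio test and limma-voom also called 0 of the 9. Over all genes DESeq2 called 48 higher and 4 lower at D10, the likelihood ratio test 45 higher and 2 lower, and limma-voom 0. None of the 9 genes separated the groups at D10, where 4.41% of all genes had every EAM heart above every control. At D15 the groups separated for 7 of 9 genes (34.6% of all genes) and at D21 for 6 of 9 (17.8% of all genes). The first EAM heart of D10 held the highest value of its group for 8 of the 9 genes. Set against the mean of the D15 EAM hearts, that heart had 80.8% of the Il2rg level, 64.0% of Il4ra, 56.8% of Il2rb, 56.1% of Il2ra and 54.8% of Il21r, but 22.1% of Il7r. The same heart had 70.1% of the D15 level of Ptprc, which encodes the leukocyte antigen CD45.

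Among the 4 EAM hearts of D21, the fourth was highest, then the first, the second and the third, in this same order for Il2ra, Il2rb, Il2rg, Il4ra, Il7r, Il21r and also Ptprc. The highest D21 heart exceeded the lowest 11.2-fold for Il21r, 6.11-fold for Il2ra, 4.60-fold for Il2rb and 3.72-fold for Il2rg, and 4.67-fold for Ptprc. For Il15 and Il15ra it did so only 1.3-fold and 1.31-fold. At D15 the spread was narrower, between 1.33-fold for Il4ra and 2.72-fold for Il7r among the 6 called genes.

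The D21 calls of Il2rb, Il7r and Il21r were lost in each fit that left out 1 of the 4 controls, or the first EAM heart. Nearly all calls over the genome were lost in the same fits. Without control 1, 2, 3 or 4, 0, 0, 0 and 2 of all genes were called higher, and 5 without the first EAM heart. With every heart kept, 657 were called higher. Without the second EAM heart Il7r alone passed, and without the third, the lowest, all 6 chains passed. Over all genes, 19 and 1480 were called higher in these fits. The log2 fold changes of Il2rb, Il7r and Il21r stayed between 3.35 and 4.72 in the 8 fits that left out 1 heart.

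Each receptor chain was then set against the shared chain. The log2 ratio of a chain to Il2rg, from CPM with 0.5 added, was compared between EAM and control hearts by an exact two-sided permutation test, 18 tests in all, with 0.0286 as the smallest p that 4 against 4 hearts allow. At D15 the ratio rested at -1.46 ± 0.32 (SD, n = 4) for Il2rb in EAM and at -3.17 ± 0.37 in control hearts, a difference of 1.70. For Il7r the difference was 1.82 and for Il21r 1.82, all with every EAM heart above every control heart. At D21 these 3 differences were 1.66, 1.96 and 1.92, again without overlap. The ratio of Il15ra to Il2rg was lower by 2.09 at D15 (-2.09) and by 1.48 at D21 (-1.48), with no overlap. For Il2ra the difference was -0.02 at D15 (exact p = 0.857) and 0.53 at D21 (exact p = 0.0857). Il4ra differed by 0.26 at D15 (exact p = 0.114) and by 0.30 at D21 (exact p = 0.0286). In all, 9 of 18 tests gave the smallest exact p, and none passed 0.05 after adjustment (smallest adjusted p = 0.0571 in this permutation test). Over 18 tests the adjustment can pass 0.05 only where more than 9 of them reach that smallest p. No ratio could pass alone, however far apart its groups, so that none passed does not show unchanged ratios. The pseudocount raises the ratio of a low chain to Il2rg, most of all in control hearts, so the differences given for Il2rb, Il7r and Il21r are smaller than they would be without it.

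**Figure D3:**
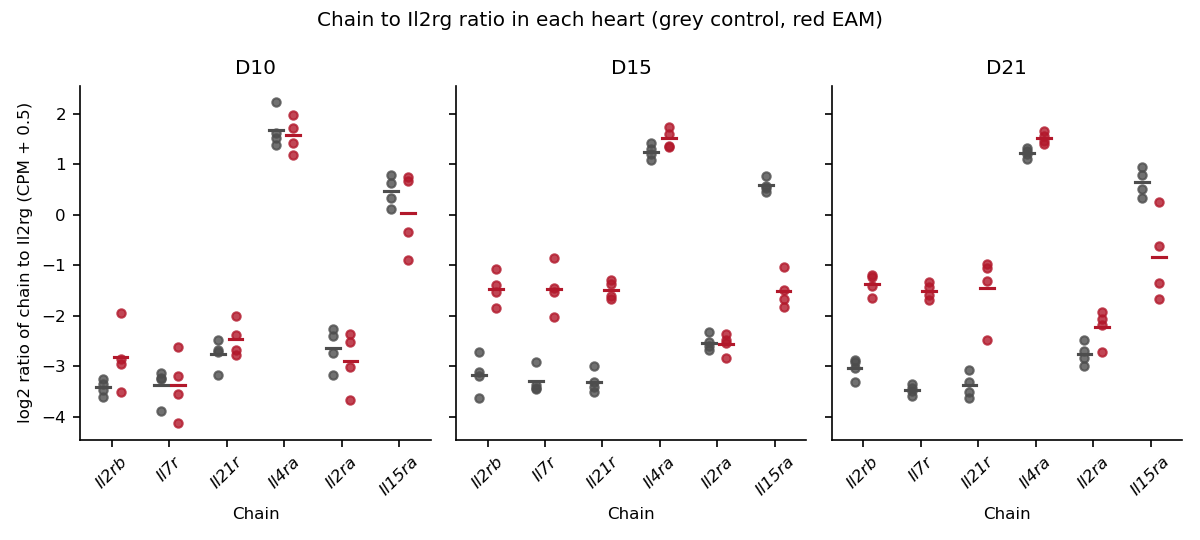
Log2 ratio of 6 receptor chains to the shared chain Il2rg in each heart at D10, D15 and D21, from CPM with 0.5 added, with control hearts in grey, EAM hearts in red and lines at group means. The ratios of Il2rb, Il7r and Il21r in EAM hearts lie above those of controls at D15 and D21, and those of Il15ra lie below.

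The same ratios were formed to Ptprc, which rose with log2 fold changes of 3.98 at D15 and 2.58 at D21. At D15 the log2 ratios of Il2rb, Il7r and Il21r differed by 0.32, 0.44 and 0.43 between EAM and control hearts, with overlap and exact p of 0.2, 0.229 and 0.114. The pseudocount made these differences smaller here too, and the overlap is that of ratios with it. By edgeR, Il2rb (27.2-fold), Il7r (32.0-fold) and Il21r (31.6-fold) rose more at D15 than Ptprc (15.8-fold). The overlap therefore does not show that these chains rose only as much as Ptprc. Il2ra (-1.41), Il2rg (-1.39) and Il4ra (-1.12) were lower relative to Ptprc in every D15 EAM heart than in any control, and so were Il15 (-3.98), Il7 (-3.60) and Il15ra (-3.48). At D21 Il2rb (0.71) and Il7r (1.0) were higher relative to Ptprc without overlap, and Il21r (0.97) with 3 of 4 EAM hearts above all controls. The pseudocount made these differences smaller as well, and the 3 of 4 hearts for Il21r are counted with it. The edgeR fold changes at D21 were 13.0 for Il2rb, 17.8 for Il7r and 20.9 for Il21r, against 5.99 for Ptprc. With the pseudocount, the other 6 were lower relative to Ptprc at D21 in every EAM heart than in any control. The log2 differences were -0.42 (Il2ra), -0.65 (Il4ra), -0.95 (Il2rg), -1.89 (Il7), -2.27 (Il15) and -2.44 (Il15ra). The separation of Il2ra rested on the pseudocount. In plain CPM the first EAM heart had 11.6 of Il2ra to 149 of Ptprc. The fourth control had 1.95 to 29.4, a lower ratio. The edgeR fold changes at D21 were close, at 5.68 for Il2ra and 5.99 for Ptprc. Over these 27 tests 14 gave the smallest exact p, and none passed 0.05 after adjustment (smallest adjusted p = 0.0551 in this permutation test). Here too a ratio could not pass alone, since more than 14 of the 27 tests would have to reach the smallest p.

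Levels between genes were compared as CPM per kb of exon. Over the 12 control hearts the medians ran from Il4ra (5.93 CPM per kb) and Il2rg (5.80) through Il15ra (4.76) and Il15 (2.26) to Il2ra (0.339), Il21r (0.298), Il2rb (0.268), Il7r (0.190) and Il7 (0.164). The ranges of neighbours in this order overlapped except between Il15ra and Il15 and between Il15 and Il2ra. In the D15 EAM hearts Il4ra (37.6) and Il2rg (34.1) still led, and Il21r (8.46), Il2rb (7.29) and Il7r (6.64) came next, beside Il15ra (6.02), with overlapping ranges. Below them came Il2ra (2.34) and Il15 (2.14), which overlapped, and Il7 (0.245).

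**Figure D4:**
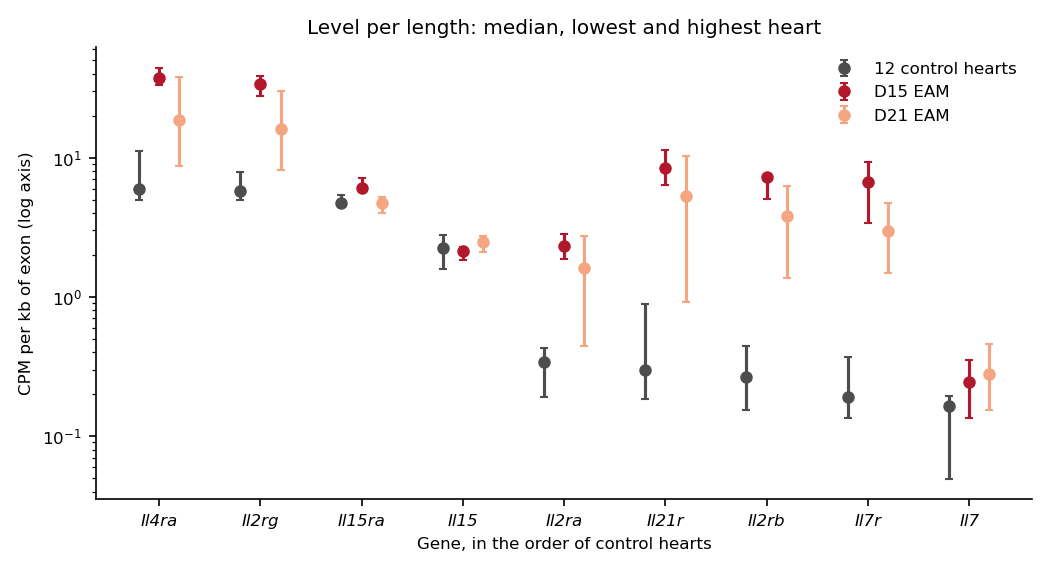
Median CPM per kb of exon (log axis) for each gene in the 12 control hearts, the 4 D15 EAM hearts and the 4 D21 EAM hearts, with bars from the lowest to the highest heart. Il21r, Il2rb and Il7r lie at 0.190 to 0.298 CPM per kb in control hearts and between 6.64 and 8.46 CPM per kb at D15.

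Of the other ligands of the family, Il9, Il2 and Il21 had few reads or none. Il9, the ligand of the IL-9 receptor, had 0 reads in all 24 hearts, which allows up to 0.2 CPM in a library. Il2, the T cell growth factor, had 0 to 8 reads a heart, with 7, 2, 8 and 7 reads in the D15 EAM hearts and 2, 0, 0 and 1 in their controls. Il21, a cytokine of helper T cells, had 0 reads in the 12 control hearts and 7, 15, 4 and 4 reads in the D15 EAM hearts. Against a floor of 3 reads over the control group, Il21 was at least 7.09-fold higher at D15, at least 3.93-fold at D10 (13 reads, in 2 of 4 hearts) and at least 3.08-fold at D21 (8 reads). These bounds allow for counting error in the controls only and take the EAM reads as exact. Il4, the ligand of Il4ra, had 9 to 29 reads a heart and was the only one of these 5 ligand and receptor genes to pass the filter, with log2 fold changes of 0.26, -0.34 and -0.29 (SE 0.25, 0.30 and 0.28), none called. Il9r had 0 to 10 reads a heart.

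Of 5 further ligands and receptors of the IL-13 and Il7r-sharing systems, 4 rose at D15 and 1 of 3 tested rose at D21, beside 18.1% and 4.3% of all genes. The one that did not rise at D15 was the ligand Tslp (log2 fold change -0.39, SE 0.29). Crlf2, a receptor chain of the same superfamily that pairs with Il7r, rose 3.74-fold at D15 (log2 1.90, SE 0.11) and 2.72-fold at D21 (log2 1.44, SE 0.26). Il13ra1, the partner of Il4ra in the IL-13 receptor, rose 2.06-fold at D15, and Il13ra2, the decoy IL-13 receptor, rose from 0.05 to 0.18 CPM in controls to 2.87 to 6.52 CPM. Il13, a further ligand of Il4ra, had 10, 22, 12 and 18 reads in the D15 EAM hearts and 0 in their controls. Against the same floor of 3 control reads it was at least 14.6-fold higher, with the EAM reads taken as exact.

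Among the signalling genes, Pik3cd, the leukocyte PI3-kinase subunit, rose 8.62-fold at D15 (log2 3.11, SE 0.10) and 4.43-fold at D21 (log2 2.15, SE 0.40). Jak3, the kinase bound to the gamma chain, was 1.86-fold higher at D15 (log2 0.90, SE 0.11) and Stat6, the factor downstream of Il4ra, 1.83-fold higher (log2 0.87, SE 0.06), both past the FDR but not the 2-fold limit. Stat5b, a main factor downstream of Il2rb, was lower at this FDR but not by 2-fold, at a log2 fold change of -0.48 (SE 0.10) at D15 and -0.54 (SE 0.08) at D21. At any fold, 31.2% of all genes tested at D15 were lower at this FDR. Stat5a was at -0.03 (SE 0.12) at D15.

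Of 10 transcripts known to be raised by these cytokines, 5 rose at D15, beside 18.1% of all genes. The feedback inhibitors Socs1 and Socs3 rose 29.0-fold and 26.5-fold, the kinase Pim1 4.42-fold, and the effector genes Gzmb (granzyme B) and Ifng (interferon gamma) rose from at most 0.47 CPM to between 6.94 and 12.8 CPM and from at most 0.06 CPM to between 2.38 and 6.50 CPM. Cish, the STAT5 target that inhibits IL-2 signalling, stood at 67.9 to 88.1 CPM in the D15 EAM hearts and 57.0 to 108.5 CPM in controls (log2 fold change -0.02, SE 0.18). Bcl2, a survival gene downstream of IL-7, was at 0.10 (SE 0.14) on the log2 scale at D15. At D21, 1 of 9 tested transcripts was called, Socs3 at 11.3-fold, beside 4.3% of all genes.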

How the data were processed

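The authors aligned read pairs of a directional mRNA library to GRCm38 with HISAT2 2.0.4, removed duplicates with Picard and deposited raw counts per Ensembl gene from featureCounts. The sources used here do not say whether the counting used strand. The count tables held 41388 genes and 92 spike-ins with 0 reads. Each heart was put in its group from the labels. At each day a gene needed 10 reads or more in 4 hearts or more, and the test of EAM against control used edgeR 4.0.16 (TMM, quasi-likelihood test, Benjamini-Hochberg adjustment over all genes, R 4.3.3), called at FDR under 0.01 and 2-fold. Effects were compared between days in a fit of all 24 hearts. Alternatives used DESeq2 1.42.0, limma 3.58.1 (voom), other limits, filters and scalings, a replicate block and leaving out each library. Part of the list of signalling genes is not reported here.

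Ratios were tested with scipy 1.17.1 and figures drawn with matplotlib 3.10.9. Positions and exon lengths are from GENCODE M21. The 9 genes, the lists and most alternatives were chosen with earlier results of these data known, and the earlier form of the quasi-likelihood test was added as an alternative after the data were seen. The labels do not say what replicate numbers mark, and p-values measure the spread between these hearts. Deviations of same-numbered EAM and control hearts correlated at over 0.1 in all 4 pairs of D21 (0.107 to 0.316), in 2 of 4 at D10 (0.383 and 0.430) and in 0 of 4 at D15. These values do not settle whether the numbers mark pairs at any day. All tests given first leave the hearts unpaired, and the block was run as an alternative at every day and for the effects between days.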

Additional observations from a re-analysis of the deposited data

Results flagged for a closer look

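Among 54 groups of 4 hearts (9 genes, 6 groups), 5 held a heart whose gap to the nearest other heart exceeded Dixon's limit, and chance gives about 1 in 20. The first EAM heart of D10 was far above its group for Il2ra, at 7.51 CPM. The second EAM heart of D15 was far below the other 3 for Il2rb, at 21.6 CPM. The fourth control heart of D21 was far above the other controls for Il4ra, at 41.5 CPM, and for Il7r, at 1.13 CPM. The third control heart of D10 was far below its group for Il7, at 0.281 CPM, which rests on 5 reads.

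The EAM effect differed between D15 and D10 by test for 3 genes, by 2.07 for Il4ra, by 3.6 for Il7r and by 3.31 for Il21r on the log2 scale (edgeR adjusted p = 0.00247, 0.00250 and 0.00817). The first EAM heart of D10 moves with this difference. Without it the D10 log2 fold changes were 0.34, 0.40 and 0.55, and the differences between D15 and D10 were 2.45, 4.55 and 4.38, all past the limits.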

How the results depend on the processing

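The counts at D10 (0 of 9) and D15 (6 of 9) were unchanged in every alternative except that 7 were called at D15 with no fold limit, beside 33.3% of all genes higher. The D21 count of 3 became 6 at an FDR under 0.05, with DESeq2, with the likelihood ratio test and with all 24 hearts in the fit, 4 with the replicate block and with no filter, and 1 with limma-voom, and it ran from 0 to 6 when 1 heart was left out. Over all genes, 657 were called higher at D21 by the main rule, 1431 at an FDR under 0.05, 1364 with DESeq2 and 1356 with the likelihood ratio test. With all 24 hearts it was 1567, with the block 645, with no filter 814 and with limma-voom 80. With 1 heart left out it ran from 0 to 1480. The count of 3 genes with a different effect at D15 than at D10 became 5 at an FDR under 0.05, with DESeq2 and with the likelihood ratio test, 2 with limma-voom and with no filter, and 6 with the replicate block, and it ran from 2 to 6 with 1 heart left out. Over all genes, 865 grew by the main rule, 1560 at an FDR under 0.05, 1313 with DESeq2 and 1249 with the likelihood ratio test. With limma-voom it was 826, with no filter 725 and with the block 1335. With 1 heart left out it ran from 475 to 1961. The count of 0 for D21 against D10 became 1 with DESeq2 and with the likelihood ratio test and ran from 0 to 2. Over all genes, 11 grew by the main rule, 82 with DESeq2 and 80 with the likelihood ratio test, and from 4 to 72 with 1 heart left out. Of the chain to Il2rg ratios, 0 were called, but 11 with a pseudocount of 2 and 9 without adjustment, and of the ratios to Ptprc 14 without adjustment. The replicate block changed no other call. The cause of these changes was not tested.

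Signs turned only for values near 0. With 1 heart left out, Il15 ran from -0.10 to 0.13 at D10, from -0.20 to 0.051 at D15 (0.071 with total counts) and from -0.048 to 0.18 for the D21 against D10 effect, Il15ra at D21 ran from -0.12 to 0.016, and Il7 from -0.060 to 0.47 for the D21 against D15 effect. Read numbers limit the precision of Il7 (5 to 57 reads a heart) and of Il2, Il9 and Il21.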

Other observations

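The genes whose level ran most like each of the 9 over the 24 hearts were named by Pearson's r of log2(CPM + 1) among 14217 genes that averaged 1 CPM or more. The hearts fall into groups and share their cell content and depth, so r is a description with no p. Il2rb ran most like Itgb7 (r = 0.995) and Ccl5 (0.994), Il2rg like Slc15a3 (0.994), Il21r like Cyth4 (0.992), Il4ra like B4galt5 and Il17ra (both 0.991), Il7r like Hvcn1 (0.986) and Il2ra like Plbd1 (0.983) and Tbx21 (0.979). Il15ra ran most like the splicing factor genes Srsf1 (0.859), Srsf3 (0.842) and Sf1 (0.830), Il7 like Rcbtb2 (0.909), and Il15 like Cmpk2 (0.629), the lowest of the 9 values.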
